A study of Mus musculus with 8 samples.

Results

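The genes described here encode 49 enzymes of amino acid breakdown and synthesis, creatine synthesis and ascorbate synthesis, measured in mouse kidney after cinacalcet. They were taken by symbol through the RefSeq accession of each array probe. All 49 were measured, of 14209 genes tested, and each was well above background on all 8 arrays. Methylmalonyl-CoA mutase is written Mut, its older symbol. Kidney samples from mice that received cinacalcet HCl, a calcimimetic that activates the calcium-sensing receptor, were compared with samples from mice on standard chow, with 4 samples in each group. The dose stands in the labels as 1 mg/g of body weight, given for 5 days. All mice are labelled male and 12 weeks old, the strain is not given in the labels, and no genetic change is named for either group. Total RNA of snap-frozen whole kidney went to 1 one-colour array per sample, all on 1 slide. Nothing in the labels says whether the samples stem from separate animals, and the p-values therefore cover only the spread among these samples.

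The kidney is a site of amino acid metabolism as well as of reabsorption. Proximal tubule cells take up filtered amino acids, release serine and arginine to the blood, make the creatine precursor guanidinoacetate, and break down tyrosine, proline and myo-inositol. In mice ascorbate is made from glucuronate, and the enzyme of the final step is known mainly from liver.

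Levels below are the log2 of the processed spot intensity after subtraction of the array's 75th percentile, and differences are cinacalcet minus control on that scale. Levels of different genes cannot be compared, because probes differ in brightness. The 95% intervals and tests are from limma with Benjamini-Hochberg adjustment over all genes tested, and a gene is said to have risen or fallen where its adjusted p was under 0.05. In RNA of whole kidney, fewer cells of a type and less RNA per cell cannot be told apart.

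Cinacalcet 2, cinacalcet 3 and control 4 stood apart from the other 5 arrays: none of 4 measured Y-linked genes was above background on them, against 3 or 4 on the other arrays, although all mice are labelled male. Xist, the RNA of the inactive X chromosome, was at 0.46 to 0.95 on these 3 arrays, against -6.99 to -4.22 on the other 5. All 6 genes taken as higher in male mouse kidney were lower on these 3 arrays without overlap, with a median split of -4.54, and 3 genes taken as higher in females had a median split of 2.92, 2 of them without overlap. The control group thus held 1 such array and the cinacalcet group 2, and the calls below are also given with this split as a block, or over the 5 arrays that carry Y-linked signal. The proximal tubule list had 14 to 15 of its 15 markers above background on every array. Its summed linear level was 2285 to 2943 times the 75th percentile with cinacalcet and 2366 to 2820 in controls. None of the 15 passed on 8 arrays, while 3 fell with the block and the same number on the 5 arrays, which in both were the transporter genes Slc22a6, Slc22a7 and Slc7a13. Of these Slc7a13 Slc7a13 was not well above background on cinacalcet 2 and 3, at -5.63 and -5.61, and was at -3.29 on control 4, against 3.74 to 5.37 elsewhere. Of the 6 male-higher genes none passed on 8 arrays, while 2 fell with the block and 4 on the 5 arrays.

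Of the 49 genes 4 rose and 3 fell with cinacalcet, and 42 did not pass. The genes that rose were Hpd of tyrosine breakdown, Gldc and Psat1 of glycine and serine metabolism, and Prodh of proline breakdown. The genes that fell were Gulo of ascorbate synthesis, Gatm of creatine synthesis and the aminotransferase gene Agxt2. The 7 are 14.3% of the list, where 8.02% of all genes tested were called, 3.37% as higher and 4.64% as lower. The estimate was below 0 for 31 of the 49 genes, or 63.3%, against 54.6% of all genes. The median difference was -0.05 over the 49 genes and -0.03 over all genes.

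**Figure D1:**
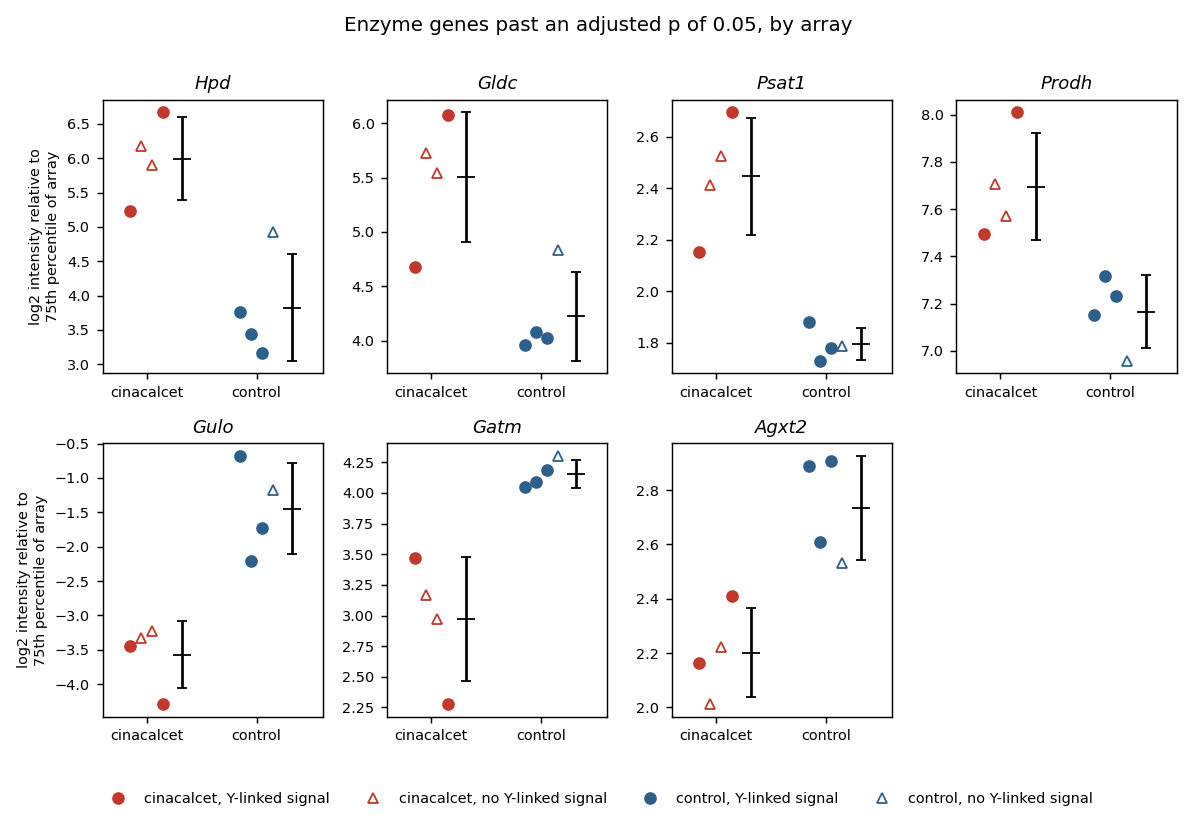
Level of the 7 enzyme genes past an adjusted p of 0.05 on each array, as log2 intensity relative to the array's 75th percentile, with cinacalcet left of control. Filled circles are arrays with Y-linked signal, open triangles arrays without it, and bars the mean ± SD of 4 arrays; the groups are apart for 6 genes and overlap for Gldc, where cinacalcet 1 (4.68) lay below control 4 (4.83).

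Promoter windows of the genes that moved are shown for 4 of them, as the stretch of DNA just around the start site from which each of these transcripts begins. RefSeq windows of build GRCm38.p6, from 250 bases before to 50 bases after the start, were found for 42 of the 49 genes and for 6 of the 7 that passed. Hpd and Gldc are the largest rises, and Gatm and Agxt2 are falls. All run 5′ to 3′ on the gene's own strand, with any match to 8 searched motifs in capitals. For Agxt2, which has 2 start sites in the table, the window of the second is shown.
Hpd, chr5:123182674-123182973, minus strand: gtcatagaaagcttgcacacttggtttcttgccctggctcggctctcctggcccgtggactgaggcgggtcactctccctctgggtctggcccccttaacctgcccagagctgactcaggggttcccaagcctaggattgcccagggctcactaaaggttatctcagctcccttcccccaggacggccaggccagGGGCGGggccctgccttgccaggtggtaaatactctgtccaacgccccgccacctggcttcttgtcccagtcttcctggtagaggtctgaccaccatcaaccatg
Gldc, chr19:30175392-30175691, minus strand: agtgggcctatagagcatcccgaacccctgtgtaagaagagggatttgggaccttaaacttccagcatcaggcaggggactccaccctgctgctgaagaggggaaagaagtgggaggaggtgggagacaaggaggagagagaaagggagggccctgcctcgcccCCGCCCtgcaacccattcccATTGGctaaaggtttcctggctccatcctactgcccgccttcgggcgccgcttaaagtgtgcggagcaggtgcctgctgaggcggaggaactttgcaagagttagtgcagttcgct
Gatm, chr2:122611228-122611527, minus strand: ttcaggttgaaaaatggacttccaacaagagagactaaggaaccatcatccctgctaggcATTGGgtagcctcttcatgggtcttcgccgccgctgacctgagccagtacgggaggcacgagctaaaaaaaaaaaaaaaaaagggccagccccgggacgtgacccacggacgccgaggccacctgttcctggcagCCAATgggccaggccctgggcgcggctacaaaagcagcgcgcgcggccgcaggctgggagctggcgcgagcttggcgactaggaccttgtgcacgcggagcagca
Agxt2, chr15:10358329-10358628, plus strand: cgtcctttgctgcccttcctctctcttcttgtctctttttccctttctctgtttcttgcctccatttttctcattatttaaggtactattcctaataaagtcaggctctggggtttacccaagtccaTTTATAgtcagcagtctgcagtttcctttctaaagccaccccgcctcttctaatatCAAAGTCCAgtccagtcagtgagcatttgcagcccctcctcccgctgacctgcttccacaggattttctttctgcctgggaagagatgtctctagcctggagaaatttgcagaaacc
The motifs were searched on both strands, so a match on the other strand shows as its reverse complement, and no matches overlapped in the windows of the genes that passed. The CCAAT box (CCAAT) was present in 28 of the 52 windows of the 49 genes, or 53.8%, against 37.4% of all 32851 windows. Its matches lie at -190 to -186 and -55 to -51 from the start in Gatm and at -66 to -62 in Gldc. The GC box (GGGCGG) was in 42.3% of the members' windows and 35.7% of all, at -55 to -50 in Hpd and -86 to -81 in Gldc. The TATA box (TATAAA) was in 11.5% of the members' windows and 13.6% of all, and in Agxt2 lies at -123 to -118. The element of hepatocyte nuclear factor 4 (CAAAGTCCA), a regulator of liver and proximal tubule genes, was in 0.475% of all windows. In the members it was found only in Agxt2, whose 2 windows overlap and share the one match, at -67 to -59 in the window shown. The half-site of hepatocyte nuclear factor 1 (GTTAAT) was in 9.62% and 7.10%, and that of the glucocorticoid receptor (AGAACA) in 13.5% and 19.0%. The amino acid response element (TGATGNAAT) and the direct repeat of AGGTCA with 1 spacer base were in none of the 52 windows, and in 0.965% and 0.0396% of all. Among genes that passed but are not shown, Psat1 has CCAAT boxes in its first window and GC boxes in its second. The window of Prodh has no match to any of the 8 motifs.

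Of the 5 genes of tyrosine breakdown and its cofactor, Hpd rose and the others did not pass. Hpd encodes the dioxygenase that turns 4-hydroxyphenylpyruvate into homogentisate. Hpd was at 5.22, 6.18, 5.91 and 6.67 on the cinacalcet arrays, against 3.76, 3.45, 3.17 and 4.93 on the control arrays. All cinacalcet arrays lay above all control arrays, and the highest control was control 4, without Y-linked signal. The difference was 2.17 (SE 0.42; limma adjusted p = 0.0259), with means of 5.99 ± 0.60 and 3.82 ± 0.77 (SD, n = 4 each). Hpd was the gene of the 49 with the largest rise, and among the 5 arrays that carry Y-linked signal it passed too, at 2.49 (limma adjusted p = 0.0422). Among the 3 arrays that lack it, of which 1 is a control, the difference was smaller, at 1.11.

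The enzymes downstream of Hpd did not pass. Hgd, which opens the homogentisate ring, had a difference of -0.17, with a 95% interval of -0.56 to 0.22. Gstz1, the isomerase of maleylacetoacetate, had 0.06 (-0.16 to 0.28), and Fah, which releases fumarate and acetoacetate, 0.13 (-0.28 to 0.54). These intervals lie below the rise of Hpd, whose own interval ran from 1.19 to 3.15. Qdpr, which regenerates the biopterin cofactor of phenylalanine hydroxylase, was at 5.75 to 5.89 with cinacalcet and 5.88 to 6.17 in controls. Its groups touched only at control 4, and with the split as a block it passed as lower, at -0.21 (limma adjusted p = 0.0448).

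Of 6 further genes of this route and of biopterin metabolism, 1 fell, none rose and 5 did not pass. Pcbd1, which recycles the biopterin cofactor and also serves as a coactivator of hepatocyte nuclear factor 1, was at 6.73, 6.73, 6.73 and 6.58 with cinacalcet, against 7.14, 7.11, 7.17 and 7.05 in controls. The groups are apart, and the difference was -0.43 (SE 0.07; limma adjusted p = 0.0145). With the split as a block Pcbd1 kept the call (limma adjusted p = 0.00874), as it did over the 5 arrays that carry Y-linked signal (0.0374).

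Glycine and serine genes gave 2 rises among 8. Gldc encodes the decarboxylase of the mitochondrial glycine cleavage system, and Psat1 the aminotransferase of serine synthesis. Gldc was at 4.68, 5.73, 5.54 and 6.07 with cinacalcet, against 3.96, 4.08, 4.03 and 4.83 in controls. The groups overlapped, since control 4 lay above cinacalcet 1. The difference was 1.28 (SE 0.31; limma adjusted p = 0.0471), or 1.16 with the split as a block (limma adjusted p = 0.0351). Among the 5 arrays that carry Y-linked signal it was 1.35 and did not pass (limma adjusted p = 0.0973). Among the 3 that lack it, of which 1 is a control, it was 0.80.

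Psat1 was at 2.15, 2.41, 2.52 and 2.69 on the cinacalcet arrays, against 1.88, 1.73, 1.78 and 1.79 on the control arrays. The groups are apart, and control 4 lay among the other controls. The difference was 0.65 (SE 0.11; limma adjusted p = 0.0203), and a dimmer probe of Psat1 gave 0.89. Phgdh, which feeds Psat1 with phosphohydroxypyruvate, did not pass and had a difference of -0.18, with an interval of -0.73 to 0.36 that ends below the estimate for Psat1.

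The partners of Gldc in the glycine cleavage system did not pass either. Amt, the aminomethyltransferase, had a difference of 0.09 (95% interval -0.089 to 0.27), and Gcsh, the lipoyl-bearing H protein, 0.07 (-0.085 to 0.23). Both intervals end below that of Gldc, which began at 0.56. Shmt1, the cytosolic enzyme that exchanges serine and glycine, had 0.39, and the demethylases Dmgdh and Sardh had -0.01 and -0.13. Of 11 further glycine and serine genes 9 were measured and 1 passed: Gnmt, which methylates glycine, rose with a difference of 0.76 (SE 0.13; limma adjusted p = 0.0188). Gnmt was at 3.90 to 4.44 with cinacalcet and 3.43 to 3.62 in controls, with no overlap. With the split as a block Gnmt kept the call, at 0.74 (limma adjusted p = 0.0136). On the 5 arrays that carry Y-linked signal it did not pass, at 0.59 (limma adjusted p = 0.0859). Leaving out single arrays gave limma adjusted p up to 0.062.

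Of the 3 proline genes Prodh rose and the others did not pass. Prodh, the dehydrogenase that starts proline breakdown, was at 7.49, 7.70, 7.57 and 8.01 with cinacalcet, against 7.15, 7.32, 7.23 and 6.96 in controls. The groups are apart, and control 4 was the lowest array. The difference was 0.53 (SE 0.13; limma adjusted p = 0.0471). Aldh4a1, which oxidises the product of Prodh, was at 5.98 to 6.52 with cinacalcet and at 6.44 to 6.73 in controls, a difference of -0.43 (limma adjusted p = 0.0815). The overlap came from cinacalcet 4 and control 4, and with the split as a block Aldh4a1 passed as lower, at -0.35 (limma adjusted p = 0.0198).

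Prodh2, the dehydrogenase of hydroxyproline, separated by Y-linked signal in both groups. Prodh2 was at 4.50, 5.45, 5.46 and 4.90 with cinacalcet, against 4.51, 4.52, 4.42 and 5.46 in controls. The 3 arrays without Y-linked signal lay at 5.45 to 5.46 in both groups, above the other 5. The difference between groups was 0.35 (95% interval -0.33 to 1.03), and 0.14 with the block (limma adjusted p = 0.380). Of 6 further proline genes 4 were measured and none passed. The one with the lowest p, the transporter gene Slc6a20b, had -0.48 (limma adjusted p = 0.106), and passed as lower with the block at -0.36 (limma adjusted p = 0.0156) and on the 5 arrays at -0.45 (limma adjusted p = 0.0332).

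Of the 2 genes of creatine synthesis Gatm fell and Gamt did not pass. Gatm encodes the amidinotransferase that makes guanidinoacetate from arginine and glycine, the step the kidney carries out for the body, and Gamt the methyltransferase that completes creatine. Gatm was at 3.47, 3.17, 2.97 and 2.28 with cinacalcet, against 4.05, 4.09, 4.19 and 4.30 in controls. Controls were close together and all above every cinacalcet array, among which cinacalcet 4 was the lowest. The difference was -1.19 (SE 0.23; limma adjusted p = 0.0248). Among the arrays that carry Y-linked signal it was -1.24 and did not pass (limma adjusted p = 0.0870). Among those that lack it, of which 1 is a control, it was -1.23, given with no test.

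Gamt was at 3.57, 3.56, 3.65 and 3.96 with cinacalcet, against 3.81, 3.71, 3.61 and 3.83 in controls. The groups overlap fully, with a difference of -0.05 and an interval of -0.30 to 0.19 that lies above that of Gatm (-1.71 to -0.66). The creatine transporter gene Slc6a8 had 0.21 (limma adjusted p = 0.116), and none of the 3 measured genes of a list of 5 on creatine use passed.

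In the ascorbate and inositol branch the last enzyme fell. Miox opens the ring of myo-inositol to give glucuronate, Akr1a1 reduces glucuronate to gulonate, and Gulo oxidises gulonolactone to ascorbate. Gulo was at -3.45, -3.32, -3.23 and -4.29 with cinacalcet, against -0.68, -2.21, -1.73 and -1.17 in controls. The groups are apart by about 1 log2 unit, and control 4 lay within the other controls. The difference was -2.13 (SE 0.36; limma adjusted p = 0.0176). Among the arrays that carry Y-linked signal it was -2.33 and did not pass (limma adjusted p = 0.0556). Among those that lack it, of which 1 is a control, it was -2.11, given with no test. Gulo signal lay below the 75th percentile on every array, and with normexp background correction its difference was -0.91 (limma adjusted p = 0.0134).

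Neither Miox nor Akr1a1 passed. Miox was at 9.57, 9.77, 9.73 and 9.45 with cinacalcet, against 9.76, 9.80, 9.89 and 10.10 in controls. The groups overlapped only in that cinacalcet 2 lay above control 1. The difference was -0.26 (95% interval -0.50 to -0.013; limma adjusted p = 0.162), and with the split as a block Miox passed as lower, at -0.32 (limma adjusted p = 0.0165). Akr1a1 had -0.21 (-0.44 to 0.03). Both intervals lie above that of Gulo, which ran from -2.95 to -1.30.

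All 10 further ascorbate and inositol genes were measured and none passed. The 1 with the lowest p, Slc23a3, a member of the ascorbate transporter family, had a difference of 0.70 (limma adjusted p = 0.0898) and passed as higher with the block at 0.56 (limma adjusted p = 0.0297). Of markers of liver, an organ in which Gulo is known to be high, 4 of 6 were measured and none passed on 8 arrays. Alb, the albumin gene, was at -2.59 to -1.51 with cinacalcet and -1.80 to -0.093 in controls, and passed as lower with the block at -1.24 (limma adjusted p = 0.00478) and on the 5 arrays at -1.07 (limma adjusted p = 0.0324). The other 3 did not pass in either. The list's summed level was 7.73 to 22.6 times the 75th percentile with cinacalcet and 8.31 to 14.7 in controls, a sum set mostly by Serpina1a. Adipose markers summed to 17.5 to 47.8 with cinacalcet and 35.8 to 113.5 in controls, with 4 or 5 of 5 above background on each array. All 5 adipose estimates were below 0 and 1 gene fell, Ucp1 of brown fat, which was at -5.66 to -3.92 with cinacalcet and -0.93 to 3.57 in controls (limma adjusted p = 0.0141). Of 7 immune markers measured, the macrophage genes Adgre1 and Csf1r fell, with differences of -1.65 and -0.56, and the neutrophil genes S100a8 and S100a9 rose, with 1.58 and 1.81. All 4 erythroid markers fell, summing to 93.1 to 314.9 with cinacalcet and 501.4 to 721 in controls. The part of these cells in the results for Gulo and the other members was not tested.

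None of the 13 branched-chain genes passed, where 8.02% of all genes did. Their median difference was -0.09, and the estimates ran from -0.42 for Ivd to 0.43 for Bcat2. Bcat2, the mitochondrial aminotransferase that starts the breakdown of leucine, isoleucine and valine, was at 2.83 to 3.32 with cinacalcet and 2.53 to 3.08 in controls. Control 4 was the only control above 2.62, and with the split as a block Bcat2 passed as higher, at 0.32 (limma adjusted p = 0.0325).

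The subunit genes of the branched-chain ketoacid dehydrogenase, Bckdha, Bckdhb and Dbt had -0.14, -0.04 and -0.09, with 95% intervals that lay between -0.39 and 0.11. In the leucine branch Mccc1, the biotin subunit of methylcrotonyl-CoA carboxylase, was at 3.72 to 3.90 with cinacalcet and 3.87 to 4.12 in controls, a difference of -0.23 (limma adjusted p = 0.0996), whereas its other probe gave 0.11. Mccc2, the other subunit, had 0.12. Ivd, the isovaleryl-CoA dehydrogenase, was at 5.33 to 5.79 with cinacalcet and 5.50 to 6.12 in controls, and with the block it passed as lower, at -0.31 (limma adjusted p = 0.0314).

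No propionate or valine gene passed. Pcca, the biotin subunit of propionyl-CoA carboxylase, had -0.32 (limma adjusted p = 0.119) with 2.68 to 2.92 against 2.84 to 3.34 in controls. Its partner Pccb had 0.04, and Mut, which makes succinyl-CoA, -0.05. The valine genes Hibch, Hibadh and Aldh6a1 had -0.21, -0.13 and -0.05. Of 15 further branched-chain genes, all measured, none passed.

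**Figure D2:**
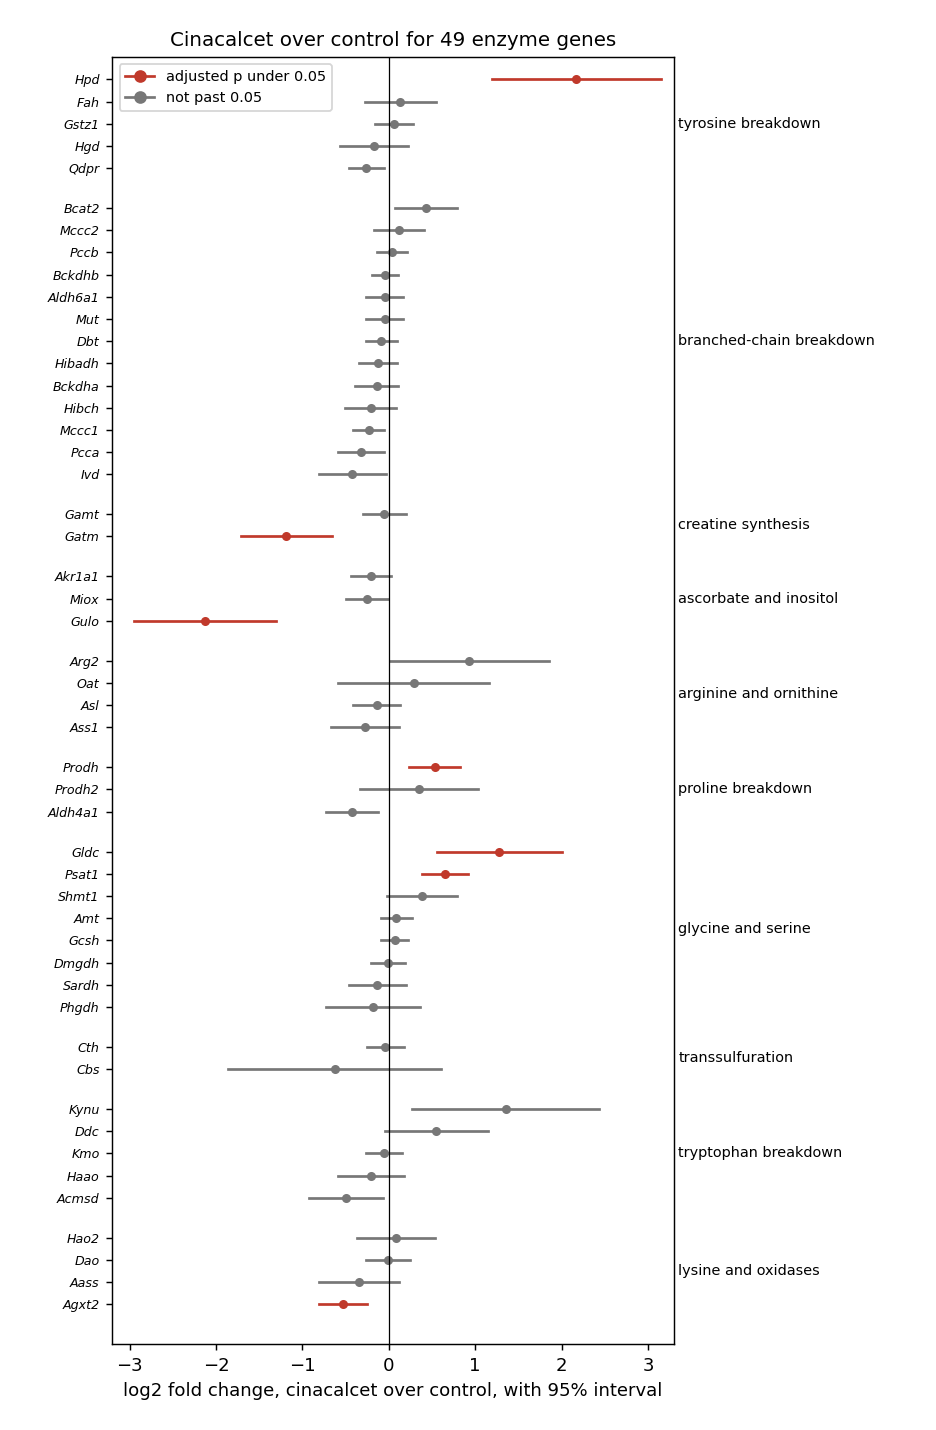
Log2 fold change of cinacalcet over control (point) with its 95% interval (line) for the 49 enzyme genes, by metabolic branch; red marks an adjusted p under 0.05. Each branch with a called gene also holds genes whose interval includes 0, and the 13 branched-chain genes lie between -0.42 and 0.43.

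Tryptophan genes did not pass on the 8 arrays, and Kynu was far higher on control 4 than on the other controls. Kynu, the kynureninase gene, was at 0.51, 1.06, 0.88 and 0.86 with cinacalcet, against -0.99, -1.10, -1.10 and 1.07 in controls. Controls 1 to 3 lay below every cinacalcet array, and control 4 above every one. The difference was 1.35 (95% interval 0.27 to 2.44; limma adjusted p = 0.111). Among the 5 arrays that carry Y-linked signal Kynu rose by 1.74 (limma adjusted p = 0.0142), while among the 3 that lack it the difference was -0.10. The test of that change in effect, an interaction chosen after seeing the data, gave -1.85 (limma adjusted p = 0.136), and no gene of all those tested passed it, with 1814 at an unadjusted p under 0.05.

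The other tryptophan genes had smaller differences. Acmsd, the decarboxylase that turns the pathway away from NAD synthesis, was at 2.17, 1.65, 1.69 and 1.54 with cinacalcet, against 2.26, 2.48, 2.45 and 1.82 in controls. Cinacalcet 1 lay above control 4, and the difference was -0.49 (limma adjusted p = 0.133). Haao and Kmo, the oxygenases of the kynurenine route, had -0.20 and -0.06. Ddc, the decarboxylase that makes dopamine in the tubule, had 0.55, or 0.87 on its dimmer probe, and with the block passed as higher at 0.36 (limma adjusted p = 0.0304). Of 9 further tryptophan genes 7 were measured and none passed, and Nadsyn1, which completes NAD, had the lowest p with -0.39 (limma adjusted p = 0.0971).

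Arginine and ornithine genes did not pass. Arg2, the mitochondrial arginase, was at -1.06, 0.32, -0.02 and -0.10 with cinacalcet, against -1.66, -1.32, -1.50 and -0.11 in controls. Control 4 lay among the cinacalcet arrays, and the difference was 0.93 (95% interval 0.013 to 1.85; limma adjusted p = 0.175). Ass1 and Asl, which make arginine from citrulline, had -0.27 and -0.14 (limma adjusted p = 0.332 and 0.471). Ornithine decarboxylase gene Odc1 was the one with the lowest p among 5 measured of 7 further genes, at -1.45 (limma adjusted p = 0.0564), and passed as lower with the block at -1.21 (limma adjusted p = 0.0185).

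Oat, the ornithine aminotransferase gene, likewise separated by Y-linked signal in both groups. It was at 2.81, 3.92, 3.88 and 2.84 with cinacalcet, against 2.94, 2.61, 2.78 and 3.98 in controls. The 3 arrays without Y-linked signal lay at 3.88 to 3.98, above all others, and the difference between groups was 0.0044 with the block (limma adjusted p = 0.977). 

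Transsulfuration turns homocysteine into cysteine, and its gene Cbs showed the widest split of the 49. Cbs was at 6.44, 5.00, 5.04 and 6.36 with cinacalcet, against 6.76, 6.88, 6.79 and 4.91 in controls. The 3 arrays without Y-linked signal lay more than 1 log2 unit below the others. Among the 5 arrays with the signal both cinacalcet arrays were below all 3 controls, and Cbs fell by 0.41 there (limma adjusted p = 0.0458). Among the 3 that lack it, of which 1 is a control, the difference was 0.11. With the split as a block Cbs did not pass, at -0.22 (limma adjusted p = 0.190). On all 8 arrays the difference was -0.62 (95% interval -1.86 to 0.61; limma adjusted p = 0.480). Cth, the next enzyme, had -0.04 (-0.25 to 0.18). Of 10 further methionine and cysteine genes 9 were measured and none passed, and Ahcy, which releases homocysteine, had the lowest p with 0.57 (limma adjusted p = 0.0749).

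Among the lysine and oxidase genes Agxt2 fell. Agxt2 is a mitochondrial aminotransferase that clears beta-aminoisobutyrate and dimethylarginines. It was at 2.16, 2.01, 2.22 and 2.41 with cinacalcet, against 2.89, 2.61, 2.91 and 2.53 in controls. The groups are apart, with cinacalcet 4 and control 4 nearest to each other, and the difference was -0.53 (SE 0.12; limma adjusted p = 0.0394). Aass, which starts lysine breakdown, had -0.34, and the oxidase genes Dao and Hao2 had -0.01 and 0.08. Of 6 further genes 5 were measured and 1 fell: Crym, which encodes the ketimine reductase mu-crystallin, was at 2.53 to 3.00 with cinacalcet and 3.08 to 3.40 in controls, a difference of -0.55 (limma adjusted p = 0.0382). Over all 10 further lists, 1 gene rose and 2 fell of 73 measured of 85, where 8.02% of all genes were called. With the block 5 rose and 9 fell, where 17.0% of all genes were called, and on the 5 arrays 1 rose and 7 fell, where 7.85% were.

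**Figure D3:**
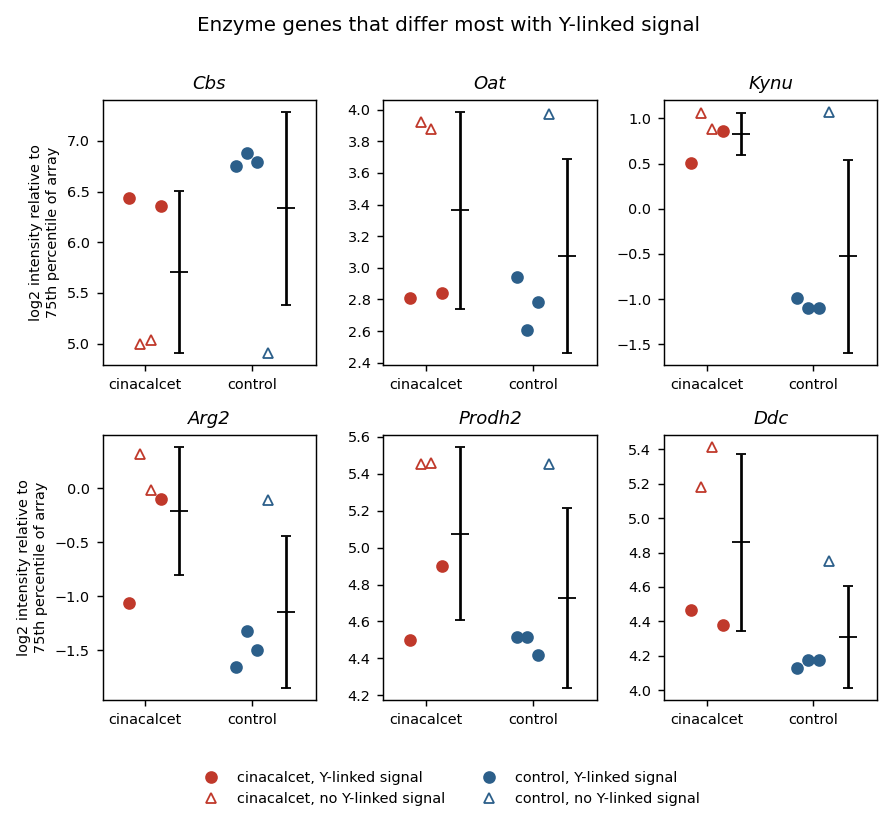
Level of the 6 enzyme genes with the widest difference between arrays without (open triangles) and with (filled circles) Y-linked signal, as log2 intensity relative to the array's 75th percentile, cinacalcet left of control, bars mean ± SD of 4 arrays. Control 4 lies near cinacalcet 2 and 3 for Cbs (4.91 against 5.00 and 5.04), Oat and Prodh2, and for Kynu only controls 1 to 3 are low.

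The split thus moved with many of these genes. For 20 of the 49, or 40.8%, the 3 arrays without Y-linked signal did not overlap the other 5, which held for 24.4% of all genes tested. Of the 20 genes 7 were higher without the signal and 13 were lower. The treatment groups did not overlap for 6 of the 49, or 12.2%, against 17.8% of all genes. In the fit with both terms, the differences without minus with Y-linked signal ran from -1.60 for Cbs to 1.13 for Oat, given here with no test. The genes that rose or fell with cinacalcet had split differences of 0.69 for Hpd, 0.50 for Gldc and Gulo, 0.20 for Gatm, 0.02 for Psat1, -0.18 for Prodh and -0.21 for Agxt2. The part of the split in the differences that did not pass was not tested.

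With the split as a block 13 of the 49 passed, 6 as higher and 7 as lower, which is 26.5% where 17.0% of all genes passed, 6.64% as higher and 10.4% as lower. They comprised the 7 genes called on 8 arrays, in the same directions, with Bcat2 and Ddc as higher and Qdpr, Ivd, Miox and Aldh4a1 as lower. Over the 5 arrays that carry Y-linked signal 3 of 49 passed, or 6.12% where 7.85% of all genes did: Hpd and Kynu as higher and Cbs as lower. The other 6 of the 7 genes had adjusted p of 0.0556 to 0.112 in limma there, with differences of -2.33 to 1.35.

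**Figure D4:**
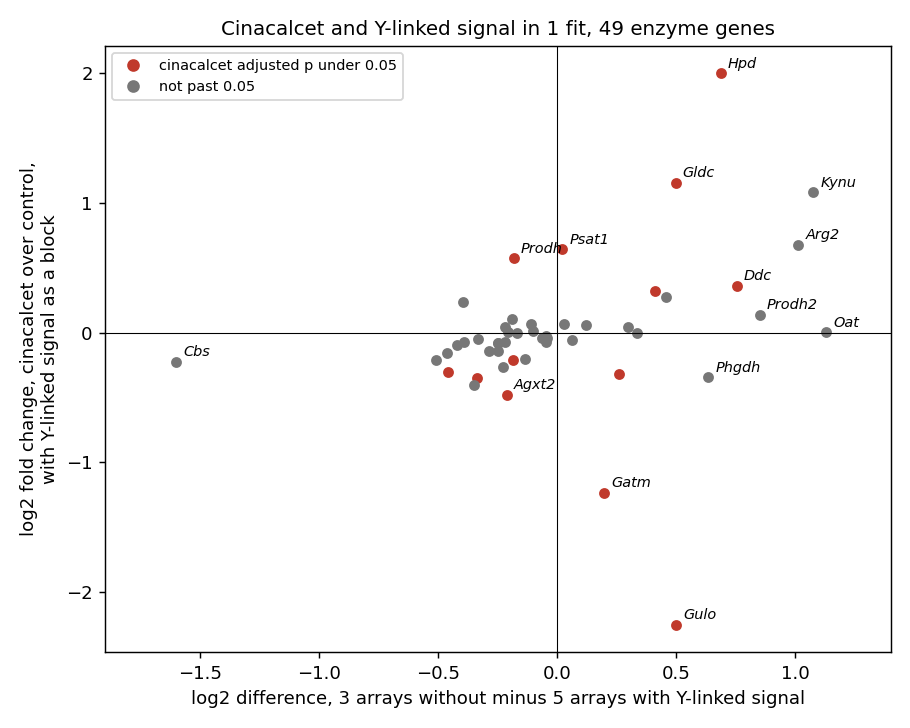
For the 49 enzyme genes, the log2 fold change of cinacalcet over control with Y-linked signal as a block (vertical) against the log2 difference of the 3 arrays without minus the 5 arrays with Y-linked signal from the same fit (horizontal); red marks a cinacalcet adjusted p under 0.05. Hpd, Gldc, Gatm and Gulo lie far from 0 on the vertical axis, while Cbs and Oat lie far from 0 on the horizontal axis. Kynu (1.08 on each axis) and Arg2 (0.68 vertical, 1.01 horizontal) lie away from 0 on both.

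Leaving out single arrays moved the calls. Gulo kept its call without each array in turn (limma adjusted p of 0.0179 to 0.0481). Hpd, Gldc and Prodh lost it without any 1 of cinacalcet 2, 3 and 4 and controls 1, 2 and 3, with adjusted p up to 0.0829, 0.130 and 0.112. Psat1 and Gatm lost it without cinacalcet 2 or 3 or control 1, 2 or 3 (limma adjusted p up to 0.0668 and 0.0768), and Agxt2 without cinacalcet 1, 2 or 3 or control 1, 2 or 3 (up to 0.113). Without control 4, 8 of the 49 passed as higher and 11 as lower. With slide column as a block 0 of the 49 passed, with limma adjusted p of 0.0953 to 0.271 for the 7 genes and differences of -2.07 to 2.58. Slide column 1 held only cinacalcet arrays and column 4 only control arrays. That contrast thus rested on cinacalcet 2 against control 3 and cinacalcet 3 against control 1. In both pairs only the control carries Y-linked signal, so treatment and split cannot be told apart there. With slide row as a block 3 passed as higher and 2 as lower. Within slide row 1 and within row 2 none passed, and the 7 genes kept their directions in both. For the 6 whose groups do not overlap, that direction was fixed in any subset of the 8 arrays.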

How the data were processed

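Kidney RNA of 8 samples was measured, 4 cinacalcet and 4 control, grouped and numbered by the sample titles. The names of the deposited files number some samples differently, and the titles were followed. The deposited files hold spot intensity on a linear scale, background-corrected and with no normalization between arrays, made with Agilent Feature Extraction 11.0.1.1 per the file headers. The submitters' processing notes name version 9.5. The deposited scanner flags gave detection and outliers.

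Control spots and outlier spots were left out, and log2 intensity was averaged over the spots of a probe and scaled by each array's 75th percentile, which was 202.9 to 257.1. No spot was saturated, and the scanner software called 51.8% to 58.0% of spots well above background. Precision is limited by having 4 arrays in a group. Probes were named by accession through RefSeq genes of GRCm38.p6, which named 27235 of 55681 probes. A probe was kept if 4 or more of the 8 arrays called it well above background, and the brightest probe stood for its gene. Of the 49 genes 14 had more than 1 probe.

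Groups were compared with limma 3.58.1 under R 4.3.3 (lmFit, eBayes, no covariates). On simulated data for this comparison, with 14209 genes, the fit recovered 34% of genes changed by 0.5 log2 units, 80% by 1, 92% by 2 and 98% by 3. Same-numbered samples do not share an origin in the labels. Per-array values are given for members past the threshold and for the pair with the lowest p in branches without one, and from each further list up to 3 genes past it or the one with the lowest p. Not every gene this rule takes is reported here. Kynu, Cbs, Oat, Prodh2 and other genes that follow the split were given in full after their values were seen. The members and lists were chosen with earlier results of these data known. Alternatives covered normalization, background correction, filters, probes, variance model, array weights, blocks, Y-linked signal and single arrays. Normexp used the median spot signal. The interaction and the differences of means on 3 arrays, which have no test, were added after seeing the data.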

Additional observations from a re-analysis of the deposited data

Results flagged for a closer look

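For 14 of the 98 groups of 4 arrays tested among the 49 genes, 1 array lay far from the other 3 by Dixon's criterion, which chance gives in about 1 of 20 groups. Of these arrays 13 were control 4, the control without Y-linked signal.

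Control 4 was the high array for Kynu at 1.07 (other controls -1.10 to -0.99), Gldc at 4.83 (3.96 to 4.08), Prodh2 at 5.46 (4.42 to 4.52), Ddc at 4.75 (4.13 to 4.18) and Bcat2 at 3.08 (2.53 to 2.62). Control 4 was the low array for Cbs at 4.91 (6.76 to 6.88), Haao at 5.86 (6.44 to 6.55), Ivd at 5.50 (6.06 to 6.12), Aass at 6.31 (6.82 to 6.91) and Bckdha at 6.57 (6.91 to 6.94). It was also the low array for Akr1a1 at 8.08 (8.38 to 8.42), Aldh4a1 at 6.44 (6.71 to 6.73) and Gstz1 at 6.56 (6.77 to 6.80). In the cinacalcet group Fah stood at 6.17 on cinacalcet 4, against 5.77 to 5.79 on the others.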

How the results depend on the processing

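Over all alternatives the 7 called genes kept their direction. For the 6 whose groups do not overlap, fits on fewer of the same arrays could not turn it. The counts of called genes (all genes tested, then members higher and lower) were 1139, 4 and 3 as reported. They were 367, 1 and 1 with no filter on dim probes, which left Psat1 and Gulo, and 5438, 10 and 17 with array weights. They were 34, 0 and 0 with slide column as a block, 1, 0 and 0 within slide row 1, and 0, 0 and 0 within row 2 (limma, 1068 genes at an unadjusted p under 0.05). They were 2417, 6 and 7 with Y-linked signal as a block, and 1116, 2 and 1 on the 5 arrays with it. Leaving out single arrays gave 218 to 3356, 0 to 8 and 1 to 11. The cause of these moves was not tested, though the 5-array, within-row and left-out-array fits hold fewer samples. The slide-column contrast rested only on the columns that held both groups. Signal over background limits Gulo, whose difference was -0.91 after normexp.

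With the replicate number as a block 0 genes passed (0 members higher, 0 lower), with 2869 genes and 12 members at an unadjusted p under 0.05 in limma. Nothing in the labels pairs the samples by number. After each gene was centred on its group mean, same-numbered samples correlated at 0.34, -0.54, -0.36 and -0.56 for numbers 1 to 4. Number 1 joins arrays that both carry Y-linked signal, while numbers 2, 3 and 4 each join an array with it to an array without it. These correlations therefore cannot show whether the numbers pair the samples.

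The sign of 16 members that were not called turned in some alternatives, with adjusted p of 0.389 or more there. Quantile normalization gave Bckdhb 0.041, Mut 0.0020, Gamt 0.017, Dmgdh 0.071, Kmo 0.029 and Dao 0.043. Normexp gave Cth 0.037, Kmo 0.0031 and Dao 0.020, and with quantile normalization Bckdhb 0.018, Mut 0.040, Gamt 0.024, Dmgdh 0.053, Cth 0.052, Kmo 0.065 and Dao 0.046. The mean over probes gave Cth 0.0026 and Dao 0.0045, and array weights Fah -0.046, Gstz1 -0.027 and Phgdh 0.11. Slide column as a block gave Fah -0.10, Gstz1 -0.071, Bckdhb 0.040, Pccb -0.047 and Phgdh 0.30. Row 1 gave Fah -0.13, Gstz1 -0.040 and Phgdh 0.20. Row 2 gave Bckdha 0.0018, Bckdhb 0.0079, Mut 0.078, Aldh6a1 0.070, Oat -0.077, Amt -0.017, Dmgdh 0.040, Cth 0.018, Kmo 0.066, Dao 0.14 and Hao2 -0.27. The Y-linked block gave Mut 0.0035, Dmgdh 0.014 and Dao 0.045, and the 5 arrays Gamt 0.061 and Dmgdh 0.088. Leaving out single arrays gave ranges of -0.087 to 0.023 for Cth, -0.078 to 0.041 for Dmgdh, -0.10 to 0.055 for Dao, -0.0046 to 0.10 for Gstz1, -0.0086 to 0.072 for Pccb, -0.021 to 0.27 for Hao2 and -0.036 to 0.21 for Fah.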
